A study of Mus musculus with 6 samples.

Results

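Baseline transcriptomes were described for the 3 RNA-Seq libraries of *Gdpd3*+/+ long-term (LT)-CML stem cells, out of 6 libraries in the series. The members were the 3 *Gdpd3*+/+ libraries, chosen by the genotype in their labels, and within them all 22380 of the 36976 listed genes that carry the protein-coding type. The other 3 libraries came from *Gdpd3*-/- cells and are not used here. The study asked how *Gdpd3*, a lysophospholipase D enzyme, and the lysophospholipid metabolism it serves bear on the maintenance of CML stem cells. All mice were C57BL/6 and carried both the SCL-tTA and the TRE-BCR-ABL1 transgenes (tet-CML mice). In this model the tetracycline transactivator tTA is driven by control elements of the SCL (*Tal1*) gene, and taking doxycycline out of the drinking water 5 weeks after birth switches the human BCR-ABL1 oncogene on. Cells were taken at 5 weeks after induction, when the mice had CML-like disease. The *Gdpd3*+/+ libraries drew on 22 males and 12 females, so that each library is a pool of mice, and the labels do not say which mice went into which library. LT-CML stem cells were sorted from bone marrow as CD150+CD48-CD135- cells within the lineage-negative, Sca-1+, cKit+ (LSK) gate. Libraries were made with SMART-Seq v4 from full-length cDNA. No untreated, uninduced or wild-type haematopoietic stem cells are among the libraries described. The levels below are those of cells sorted from leukaemic mice, and no change against normal cells is given. The human transgene has no row in the mouse annotation and its transcript was not measured.

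Long-term haematopoietic stem cells sit at the top of the blood hierarchy, divide rarely and renew themselves, while their progeny pass through progenitors into granulocytic, erythroid, megakaryocytic and lymphoid cells. In chronic myelogenous leukaemia the BCR-ABL1 kinase signals through the Ras, PI3K and JAK-STAT pathways and expands granulocytic cells, and a small population of leukaemic stem cells maintains the disease. *Kit*, *Ly6a* (Sca-1), *Slamf1* (CD150), *Procr* (EPCR), *Mecom* (Evi1) and *Hlf* are established markers or regulators of mouse long-term stem cells. Transcripts of granule proteins such as *Elane* and *Mpo*, and those of *S100a8*, belong to cells on the path to neutrophils.

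Levels are given as FPKM, fragments scaled to gene length in kilobases and to 1000000 mapped fragments, which corrects for gene length and permits genes to be set side by side. Ranks run from 1 for the highest mean FPKM of the 22380 coding genes. A percentile gives the share of coding genes below a gene, and detected means an FPKM of at least 1 in every library. Values in triplets are for replicates 1, 2 and 3 in that order, and errors are SD with n = 3. The libraries had 4.98, 6.28 and 6.13 gigabases covered on genes, taken from the scale at which FPKM times gene length became whole bases. Numbers of reads were not listed, so that no counting interval is given. In bulk RNA such as this, fewer cells of a type and less RNA per cell cannot be told apart.

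The libraries detected 11230 of the 22380 coding genes (50.2%) and left 5081 (22.7%) at 0 in all 3. Single libraries held 11600, 11545 and 11555 coding genes with an FPKM of at least 1, and 682 genes reached that level in only 1 or 2 libraries. The detected genes had a median of 10.1 FPKM. A mean of at least 10 FPKM was reached by 5665 genes, a mean of at least 100 by 559, and a mean of at least 1000 by 31. Expression was concentrated in few genes. The 10 highest genes held 11.9 ± 1.40% of the summed coding FPKM, the 100 highest 31.2 ± 1.26% and the 1000 highest 62.0 ± 0.694%. Genes of highest FPKM were short, with a median length of 982.5 bases for the 100 highest against 3413 bases for the detected genes. FPKM divides by length, which ranks short genes higher, and the part of this in the difference was not tested.

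All 6 stem cell markers were detected in every library. *Ly6a*, whose product Sca-1 defines the LSK gate, had FPKM values of 395, 342 and 409.6 and a mean of 382 ± 35.6 (rank 106). *Kit*, the receptor for stem cell factor, had 128, 125 and 131 FPKM with a mean of 128 ± 3.15 (rank 406). These genes of the gate stood well above the other markers. *Hlf*, a bZIP transcription factor of primitive cells, had 25.6, 24.0 and 22.4 FPKM (24.0 ± 1.59, rank 2837). *Procr*, the endothelial protein C receptor, had 24.0, 18.7 and 21.9 FPKM (21.5 ± 2.65, rank 3127). *Hlf* and *Procr* were the only neighbours in this order whose 3 values overlapped, so that their order was not separated from the spread between libraries. *Slamf1*, which encodes the CD150 used to pick the long-term cells, had 11.7, 10.1 and 10.3 FPKM (10.7 ± 0.879, rank 5425). *Mecom*, a zinc finger factor needed by long-term stem cells, had 9.52, 9.45 and 8.58 FPKM (9.18 ± 0.522, rank 5950). The values of *Slamf1* and *Mecom* lay close to the detected gene median of 10.1 FPKM. The ratio of *Hlf* to *Mecom* was the steadiest of those computed, at 2.61 ± 0.0748 over the libraries.

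**Figure D1:**
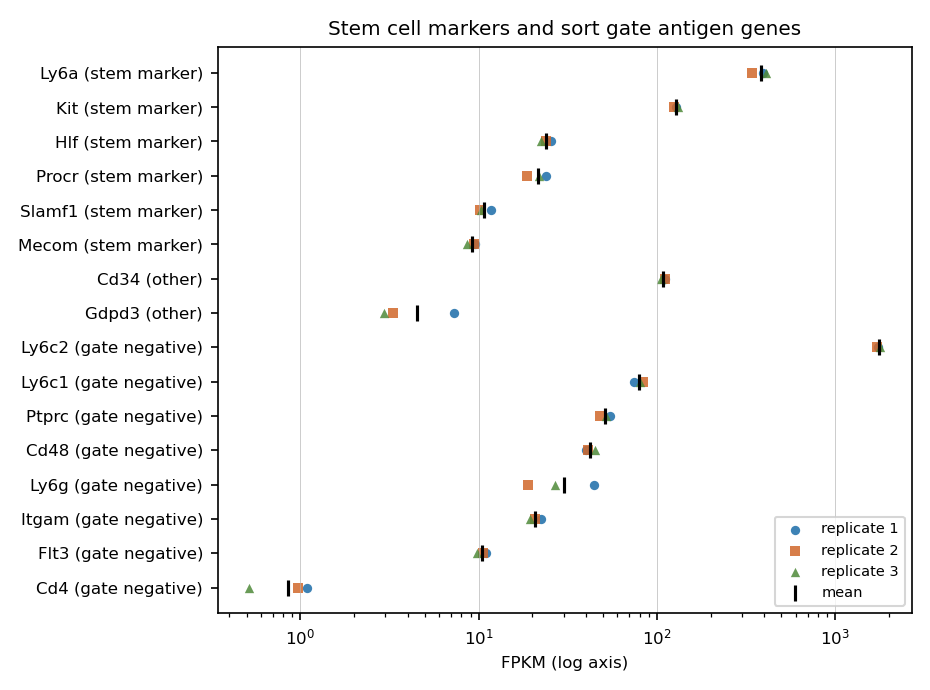
FPKM (log axis) of the 6 stem cell markers, *Cd34*, *Gdpd3* and genes of antigens that the sort gate excludes, 1 point per library with the mean as a bar. The stem cell markers lie between 9.18 and 382 mean FPKM with little spread, and *Ly6c2* at 1752 and *Cd48* at 41.9 lie above several of them.

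The genes of antigens that the gate excludes were not all low. *Cd48*, whose protein the gate excludes, had 39.8, 41.2 and 44.8 FPKM (41.9 ± 2.58). All of its values exceeded every value of *Slamf1*, with a *Cd48* to *Slamf1* ratio of 3.94 ± 0.491. *Flt3*, which encodes CD135, had 11.01, 10.6 and 9.80 FPKM (10.5 ± 0.617, rank 5516), and its values overlapped those of *Slamf1*. *Kit* exceeded *Flt3* by 12.3 ± 0.977-fold. Of the genes of lineage antigens, *Ptprc* (CD45, of which B220 is an isoform found on B cells, though the gene is used in all leukocytes) had 51.4 ± 3.10 FPKM and *Itgam* (CD11b) had 20.8 ± 1.53. Among the Gr-1 genes, *Ly6g*, specific to neutrophils, had 44.2, 18.98 and 26.8 FPKM, with the highest value in replicate 1 and the lowest in replicate 2. *Ly6c1* had 79.7 ± 4.70 FPKM, and *Ly6c2*, an antigen of monocytes and immature granulocytic cells, had 1731, 1729 and 1796 FPKM (rank 16). The T cell genes *Cd4* and *Cd8a* were near the floor, with 1.09, 0.968 and 0.516 FPKM for *Cd4* and a single value above 0, 0.000899 FPKM in replicate 1, for *Cd8a*. Ly6 genes are near copies of each other, and how the authors' counting divided shared reads between them was not tested. A transcript level is not a level of surface antigen, and the cells were sorted on the latter. The share of cells that any of these transcripts came from was not measured.

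*Gdpd3* itself had 7.30, 3.29 and 2.95 FPKM (4.51 ± 2.42, rank 8343), with replicate 1 more than 2-fold above the others. Of its 1066 exon bases, 190 are shared with *Gm9967* on the opposite strand, and whether counting was stranded is not given. *Cd34*, a progenitor antigen that long-term stem cells of adult mice carry at low levels, had 111, 111 and 105 FPKM (109 ± 3.38, rank 503).

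The highest coding genes of the libraries were genes of maturing neutrophils and of mitochondria, not of stem cells. *S100a8* and *S100a9*, which form the calcium-binding protein calprotectin of neutrophils, ranked 1 and 2 in every library. *S100a8* had 13261, 11686 and 12963 FPKM (12636 ± 837) and *S100a9* 7416, 6301 and 6858 (6858 ± 557). *S100a8* was 98.6 ± 5.00 times the level of *Kit* and 33.1 ± 1.32 times that of *Ly6a*. *Ngp*, a neutrophil granule protein, followed at rank 4 with 3711, 3019 and 3256 FPKM. *Elane* (neutrophil elastase) had 2916, 3383 and 3137 FPKM and *Mpo* (myeloperoxidase) 1889, 2175 and 2040.1, which was 24.6 ± 2.23 and 15.9 ± 1.37 times the level of *Kit*. *Elane* and *Mpo* were lowest in replicate 1, where *S100a8*, *S100a9* and *Ngp* were highest. Of *Mpo*'s exon bases, 512 are shared with *Gm11505* on the opposite strand. *Camp* (cathelicidin) and *Chil3* (a chitinase-like protein) had 1676 ± 91.4 and 1371 ± 153 FPKM. Of the 25 highest coding genes, 7 were granule or neutrophil genes and held 8.58, 7.98 and 8.51% of the coding FPKM in replicates 1, 2 and 3, and 7 were genes of the mitochondrial genome with 4.89, 4.46 and 4.63%. The sorted libraries held the stem cell transcripts and, at far higher levels, transcripts that mark granulocytic differentiation, so they are named here by their sort gate.

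**Figure D2:**
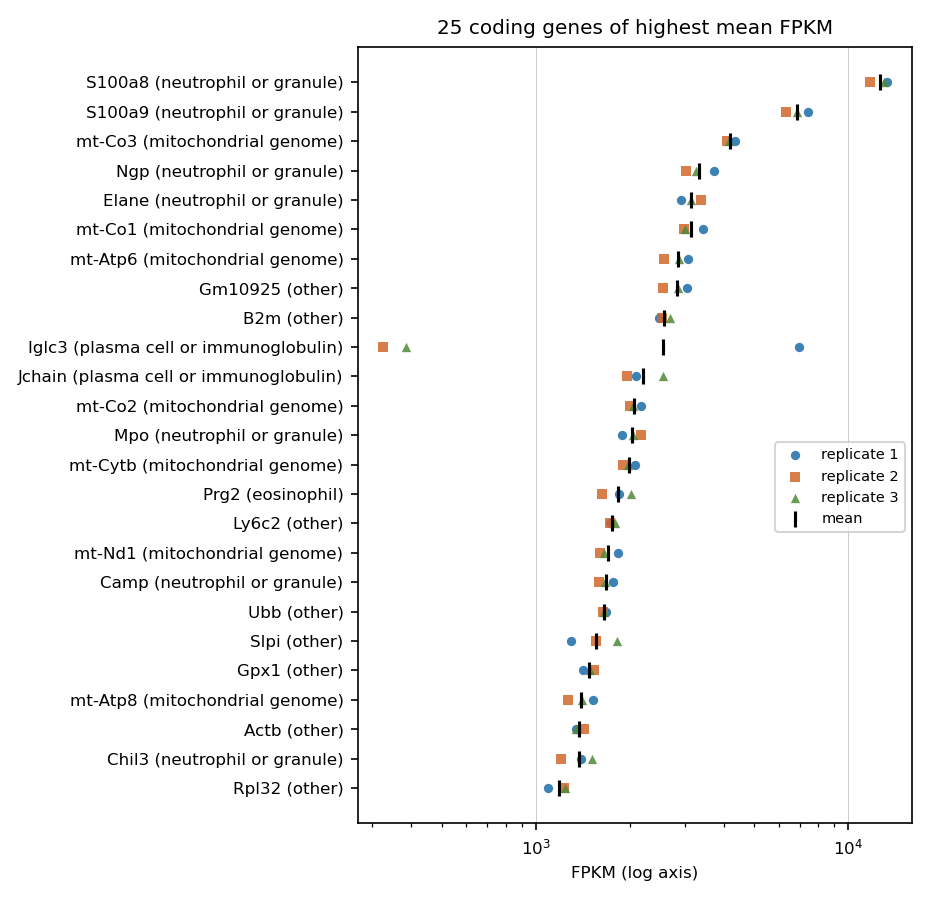
FPKM (log axis) of the 25 coding genes with the highest mean, 1 point per library with the mean as a bar and the group of each gene in brackets. *S100a8* and *S100a9* lead in every library, and only *Iglc3* is split, at 6969 FPKM in replicate 1 against 325 and 383 in the others.

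The other genes among the 25 highest covered several functions. *B2m*, the light chain of MHC class I, had 2476, 2528 and 2695 FPKM, and *Prg2*, the major basic protein of eosinophils, had 1851, 1628 and 2016. *Jchain*, which joins the units of polymeric antibodies in plasma cells, had 2088, 1958 and 2551 FPKM and was 17.1 ± 2.02 times as high as *Kit*. *Iglc3*, a constant region of the immunoglobulin lambda light chain, had 6969, 325 and 383 FPKM. The neighbouring lambda gene *Iglc2* had 467, 438 and 573 FPKM and showed no such split. *Slpi*, a protease inhibitor of granulocytes and epithelia, had 1292, 1559.8 and 1818 FPKM and *Gpx1*, which reduces hydrogen peroxide, had 1419, 1539 and 1489.8. *Ubb* (ubiquitin), *Actb* (actin) and *Rpl32* (a ribosomal protein) had 1655 ± 21.1, 1373 ± 45.6 and 1189.9 ± 81.5 FPKM. *Gm10925* on chromosome 1 had 3056, 2559.6 and 2853 FPKM beside 3074, 2578 and 2879 for *mt-Atp6*. All 678 aligned bases of their transcripts were identical, so that reads of the mitochondrial gene cannot be told apart from those of this copy.

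Promoter sequences were set beside the levels, since the most abundant genes differed from the bulk of detected genes there. RefSeq promoters (GRCm38.p6, 250 bases before to 50 bases after each start) were matched for 16288 of 22380 coding genes, and the highest CpG count was taken where a gene had several. The median was 22 CpG per 300 bases for detected genes and 2 for genes at 0 in every library, against 16 for all coding genes. Among genes with means from 1 to 10, 10 to 100 and 100 to 1000 FPKM the medians were 21, 22 and 22 CpG, and above 1000 FPKM the median was 4, over 19 genes. For the 24 of 26 granule and late neutrophil genes with a promoter it was 3.5. Low medians were not particular to them. T and NK cell genes had 3 over 15 genes, monocyte, macrophage and dendritic cell genes 2.5 over 14 and megakaryocyte genes 3.5 over 12. Eosinophil, basophil and mast cell genes had 3 over 12, B cell genes 4 over 11 and erythroid genes 4 over 13. Plasma cell genes had 11 over 11 and lymphoid priming genes 12.5 over 10. For stem cell transcription factors the median was 21 over 23 genes, for G2/M genes 24 over 21 genes, and for myeloid transcription factors 35 over 9 genes. Genes of stem cell surface proteins had a median of only 7 over 13 genes. The following promoters are shown as examples of CpG-poor granulocytic genes and of stem cell genes with a CpG count near and above the detected gene median, with each CG in capitals.
S100a8: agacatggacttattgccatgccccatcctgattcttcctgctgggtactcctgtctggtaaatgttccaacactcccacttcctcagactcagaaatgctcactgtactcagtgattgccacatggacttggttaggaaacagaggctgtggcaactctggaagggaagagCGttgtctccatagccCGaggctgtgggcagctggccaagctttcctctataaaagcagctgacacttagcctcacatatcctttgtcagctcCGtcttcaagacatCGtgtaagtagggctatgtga
Elane: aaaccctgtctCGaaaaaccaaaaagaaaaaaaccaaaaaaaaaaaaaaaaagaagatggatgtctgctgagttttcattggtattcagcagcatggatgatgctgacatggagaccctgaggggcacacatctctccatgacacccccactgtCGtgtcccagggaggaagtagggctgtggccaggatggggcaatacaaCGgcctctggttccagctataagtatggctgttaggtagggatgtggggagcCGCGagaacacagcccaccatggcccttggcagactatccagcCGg
Kit: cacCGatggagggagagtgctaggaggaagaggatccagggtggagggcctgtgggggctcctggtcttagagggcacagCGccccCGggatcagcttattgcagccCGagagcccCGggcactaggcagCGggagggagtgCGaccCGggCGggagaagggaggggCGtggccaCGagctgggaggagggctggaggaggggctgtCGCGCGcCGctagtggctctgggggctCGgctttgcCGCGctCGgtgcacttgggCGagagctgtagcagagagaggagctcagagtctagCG
Hlf: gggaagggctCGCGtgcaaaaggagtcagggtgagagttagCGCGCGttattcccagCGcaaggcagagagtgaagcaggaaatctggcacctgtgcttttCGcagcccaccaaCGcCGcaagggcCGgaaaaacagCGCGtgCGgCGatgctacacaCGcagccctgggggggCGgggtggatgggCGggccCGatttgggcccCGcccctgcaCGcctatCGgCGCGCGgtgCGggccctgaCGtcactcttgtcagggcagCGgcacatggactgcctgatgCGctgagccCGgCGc

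Those of *S100a8* (chr3:90668821-90669120, plus strand) and *Elane* (chr10:79886062-79886361, plus strand) held 4 and 6 CpG, and those of *Mpo*, *S100a9* and *Ngp* held 2, 2 and 3. The *Kit* promoter (chr5:75574741-75575040, plus strand, the richer of 2 that RefSeq gives) held 21 and that of *Hlf* (chr11:90390868-90391167, minus strand) 30. CpG content did not follow marker status alone, since *Slamf1* had 4, *Procr* 13 and *Mecom* up to 19. No promoter was listed for *Ly6a*. The letters TATAAA were searched on the sense strand from 40 to 11 bases before the start. A gene with several promoters was counted once, if any of them held the letters. Of coding genes with a promoter, 490 (3.01%) held the letters, as did 1.38% of detected genes and 6.65% of genes at 0 in every library. Late neutrophil genes held them in 3 of 15 and primary granule genes in 0 of 9. *S100a8* was among the 3, and the motif is visible in its printed sequence. MHC genes held them in 6 of 31, eosinophil, basophil and mast cell genes in 2 of 12 and skeletal muscle genes in 2 of 10. Stromal genes and myeloid transcription factors each held them in 2 of 9. T and NK cell genes held them in 0 of 15 and monocyte, macrophage and dendritic cell genes in 0 of 14. These are descriptions of sequence, and what bound there was not measured.

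Genes that mark or maintain stem cells were broadly detected. Of 20 genes of stem cell surface proteins, 19 were detected, with a median of 18.6 FPKM. The highest were *Ly6e* (401 ± 12.0 FPKM), a relative of Sca-1, *Ly6a* (382 ± 35.6) and *Adgrg1* (338 ± 9.30), the adhesion receptor Gpr56. *Esam*, *Cxcr4* and *Tek*, surface proteins of adhesion, homing and quiescence, had 36.4 ± 1.89, 9.53 ± 1.23 and 12.0 ± 0.769 FPKM. *Thy1* was lowest, with 0.879 ± 0.20 FPKM. Of 31 measured stem cell transcription factors, 29 were detected, with a median of 9.14 FPKM. *Lmo2*, the bridging factor of the stem cell transcription complex, had 233, 236 and 238 FPKM, followed by *Myb* (89.6 ± 4.55) and *Fli1* (63.1 ± 1.38). *Gata2*, *Meis1* and *Mycn* had 48.3 ± 3.77, 41.6 ± 2.41 and 38.4 ± 2.02 FPKM. *Runx1*, *Erg*, *Tal1* and *Prdm16*, which are also required in stem cells, had means of 8.24, 9.76, 5.83 and 2.76 FPKM, below the detected gene median. *Hoxb4*, at 0.377 ± 0.0263 FPKM, and *Hoxb5*, at 1.06 ± 0.0991, missed the limit of 1 in at least 1 library. Of 14 other genes enriched in stem cells all were detected, led by *Ifitm3* (579 ± 21.3 FPKM), *Ifitm1* (492 ± 35.9) and *Txnip* (197 ± 24.0). *Vwf*, a marker of platelet-biased stem cells, had 2.51 ± 0.212 FPKM and *Fgd5*, a marker of long-term stem cells, 2.48 ± 0.489.

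Few Hox cluster genes were detected. The 4 detected of 39 were all HoxA genes, and 14 were at 0 in every library. *Hoxa9*, a factor of self-renewal in stem cells and leukaemia, had 15.8, 16.8 and 16.8 FPKM and held 46.1% of the list. *Hoxa7*, *Hoxa10* and *Hoxa5* were the others, with 6.68 ± 0.696, 4.45 ± 0.642 and 2.76 ± 0.297 FPKM. The genes at 0 were *Hoxa13*, *Hoxb1*, *Hoxb13*, *Hoxc5*, *Hoxc12*, *Hoxc13*, *Hoxd1*, *Hoxd4* and *Hoxd8* to *Hoxd13*.

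Granulocytic genes dominated the lineage lists. All 10 primary granule genes, made by promyelocytes, were detected with a median of 533 FPKM, and together they held 2.30% of the coding FPKM. Behind *Elane* and *Mpo* came *Lyz2*, a lysozyme of myeloid cells, with 1175 ± 126 FPKM, and *Ctsg* and *Prtn3*, serine proteases of the same granules, had 650.01 ± 61.5 and 495 ± 40.5. All 16 late neutrophil genes were detected with a median of 255 FPKM and held 7.79, 6.83 and 7.50% of the coding FPKM in replicates 1, 2 and 3. *Ltf*, *Lcn2* and *Retnlg*, genes of later granules and mature neutrophils, had 401 ± 63.6, 271 ± 29.7 and 413 ± 114 FPKM. *Cxcr2*, the chemokine receptor of mature neutrophils, was lowest at 5.80 ± 1.24 FPKM. The transcription factors followed another order. Of 13 measured myeloid factors 12 were detected, led by *Myb*, *Myc* (75.7 ± 9.45 FPKM) and *Gata2*. *Spi1* (PU.1) had 36.8 ± 1.48 FPKM, and *Cebpa*, which opens the granulocytic path, only 1.81 ± 0.250, while *Cebpe*, the factor of later granulocytes, had 14.0 ± 1.34. Gfi1 and Cebpd carry no coding type in the table and were not measured.

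Genes of eosinophils, basophils and mast cells were also present, with 14 of 15 detected and a median of 27.0 FPKM. *Prg2* held 77.1% of the list, and *Epx* (eosinophil peroxidase) and *Prg3* followed with 149 ± 26.1 and 108 ± 12.4 FPKM. The basophil protease *Mcpt8* had 25.9, 34.6 and 45.2 FPKM, and the mast cell chymase *Cma1* 20.7, 41.1 and 59.0. Erythroid genes were detected in 17 of 18 cases, with a median of 23.7 FPKM. *Hba-a1* had 1312, 953 and 773 FPKM and *Hbb-bs* 1185, 801 and 703, both highest in replicate 1, and *Hba-a2* had 878 ± 237. Of the 538 aligned bases of *Hba-a1* and *Hba-a2*, 537 were identical, so that their separate values are uncertain. *Klf1*, the erythroid transcription factor, and *Alas2*, which makes haem, had 27.5 ± 3.84 and 17.1 ± 5.54 FPKM. Megakaryocyte genes were detected in 14 of 17 cases, led by *Pf4* (platelet factor 4, 193 ± 43.7 FPKM) and *Nfe2* (139.5 ± 9.44). *Itga2b* (CD41) had 41.5 ± 6.38 FPKM, *Gp9* 31.8 ± 3.68 and *Gp6* was at 0 in every library.

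Lymphoid genes were uneven, with plasma cell genes far above B and T cell genes. All 12 plasma cell genes were detected with a median of 28.5 FPKM. *Jchain* held 79.3% of that list, and *Xbp1*, a factor of secretory cells, and *Mzb1*, a chaperone of antibody folding, followed with 265 ± 16.5 and 80.9 ± 14.9 FPKM. *Sdc1* (CD138) and *Prdm1* (Blimp-1) had 13.3 ± 0.517 and 5.39 ± 0.967 FPKM. Of 14 B cell genes only 5 were detected. The receptor chains *Cd79b* and *Cd79a* had 39.7 ± 0.221 and 29.9 ± 3.25 FPKM, and *Blnk* 5.77 ± 1.09, while *Pax5*, the factor of B cell identity, had 0.0517 ± 0.0168. Of 18 T and NK cell genes 4 were detected, and *Nkg7*, a granule protein of killer cells that is also made in other cells, held 96.4% of the list with 422 ± 37.8 FPKM. *Gzmb* and *Lck* had 4.73 ± 2.46 and 4.27 ± 0.329, *Cd3e* had 0.208 ± 0.180 and *Ncr1* 0.0759 ± 0.131. Among 12 lymphoid priming genes 8 were detected, led by *Ly6d* (137 ± 8.07 FPKM), *Cd27* (35.1 ± 1.19) and *Tcf3* (24.6 ± 2.05). *Rag1* and *Rag2*, which cut antigen receptor genes, were at 0.00418 ± 0.00386 and 0.0628 ± 0.109 FPKM. *Il7r*, the receptor of lymphoid progenitors, was at 0.440 ± 0.187.

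Markers of macrophages and of cells that are not haematopoietic gave a mixed picture. Of 19 monocyte, macrophage and dendritic cell genes 10 were detected and *Ly6c2* held 95.5% of their summed FPKM, followed by *Cd68* (23.5 ± 3.43) and *Vcam1* (18.1 ± 3.11). *Adgre1* (F4/80) and *C1qa* had 5.36 ± 2.20 and 3.56 ± 0.279 FPKM and *Marco* was at 0. Of 12 stromal genes 3 were detected, and *Angpt1*, which stem cells themselves express, held 89.2% of the sum with 88.6 ± 5.26 FPKM. *Pdgfrb* and *Runx2* had 5.13 ± 0.422 and 2.83 ± 0.284 FPKM, and the defining genes *Cxcl12* and *Col1a1* had 1.02 ± 0.480 and 0.0311 ± 0.0258. Of 12 endothelial genes 9 were detected, led by *Esam*, *Eng* (14.2 ± 0.551 FPKM) and *Tie1* (13.3 ± 0.189), which are also used in stem cells. *Pecam1* had 11.1 ± 0.931, and *Cdh5*, the endothelial cadherin, 0.0883 ± 0.114. Skeletal muscle genes were detected in 10 of 12 cases with a median of 63.5 FPKM, at the 95.6th percentile. *Acta1*, the actin of muscle fibres, had 344, 238 and 232 FPKM, with *Tnnc2* and *Tnnt3* (fast troponins) at 217 ± 46.2 and 161 ± 43.5 and the creatine kinase *Ckm* at 133, 92.4 and 84.98. All 10 detected muscle genes were highest in replicate 1. The bone marrow came from hind limbs, and the part of carried-over muscle RNA in these values was not tested.

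Of 56 gene lists, 50 had a median percentile above 50, 35 above 75, and 20 had every measured member detected, where all coding genes together gave 50.2% detected and a median percentile of 50. The lists were picked for their relevance to blood cells and growth, so that a high rank of most of them describes the choice as well as the cells. Apart from the mitochondrial genome, the lists of granules, late neutrophils, ribosomal proteins and the respiratory chain stood at the top, and those of Hox, T and NK cell, stromal, Notch, B cell and Wnt genes at the bottom.

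**Figure D3:**
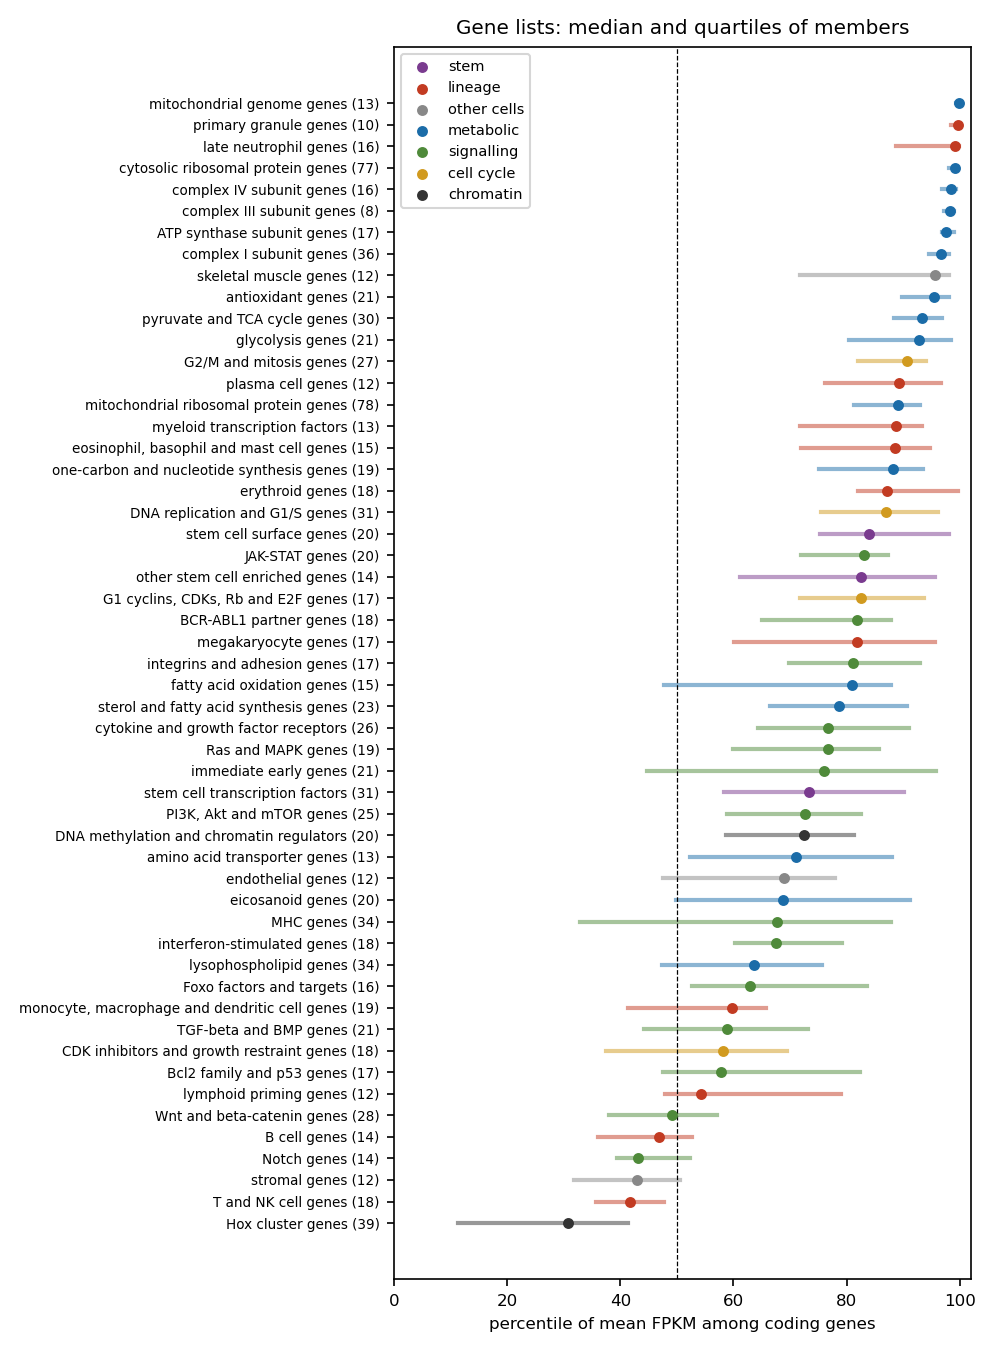
Median (point) and quartiles (line) of the percentile of mean FPKM for the members of each of 53 gene lists, with the number of measured genes in brackets and the colour giving the category. The mitochondrial genome leads with a median at the 99.9th percentile, and the Hox clusters lie lowest at the 30.8th.

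Genes of replication, mitosis and the G1 step were detected without exception. All 31 genes of DNA replication and the G1/S step were detected, with a median of 23.5 FPKM. *Mcm6*, a subunit of the replicative helicase, had 145, 149.7 and 146 FPKM, *Pcna*, the sliding clamp, 115, 119.6 and 120.1, and *Rrm1*, of ribonucleotide reductase, 119, 115 and 114. All 27 genes of G2/M and mitosis were detected with a median of 32.9 FPKM, led by *Ube2c* (119.6 ± 13.8 FPKM), *Ccnb2* (101 ± 1.51) and *Cdc20* (81.6 ± 2.16). *Mki67* had 18.4, 18.1 and 17.3 FPKM and *Cdk1*, the mitotic kinase, 45.7, 47.8 and 47.5. All 17 genes of the G1 cyclins, their kinases and the Rb and E2F families were detected, led by *Cdk4* (121 ± 2.102 FPKM), *Ccnd3* (103 ± 4.93) and *E2f4* (46.9 ± 2.80). Among 18 cell cycle inhibitors and growth restraint genes 12 were detected, with a median of only 3.15 FPKM. The highest were *Btg2* (34.7 ± 4.09 FPKM), an antiproliferative factor, *Cdkn2d* (32.4 ± 1.92), which encodes p19Ink4d, and *Ndn* (15.5 ± 2.40), an imprinted restraint gene of quiescent stem cells. *Cdkn1c* (p57), a mark of quiescence in stem cells, had 7.71, 7.72 and 6.999 FPKM, *Cdkn1a* (p21) 6.24 ± 0.753 and *Cdkn1b* (p27) 2.38 ± 0.358. *Cdkn2a*, the p16 and p19Arf locus, was at 0.0438 ± 0.0228. Whether the cycling and the restraint transcripts came from the same cells cannot be told from a bulk library.

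Genes of protein synthesis and respiration were high in most cases. All 77 cytosolic ribosomal protein genes were detected, 75 of them above the 90th percentile of coding genes, with a median of 222 FPKM and 6.32% of the coding FPKM. *Rpl32* and *Rps27* were highest with 1189.9 ± 81.5 and 1103 ± 65.0 FPKM. All 78 mitochondrial ribosomal protein genes were detected at a lower median of 28.1 FPKM, led by *Mrpl42* (167 ± 14.0), *Mrpl52* (95.8 ± 8.15) and *Mrpl36* (75.7 ± 7.79). The 13 protein genes of the mitochondrial genome held 5.39, 4.91 and 5.10% of the coding FPKM and spanned from 137 FPKM for *mt-Nd4l* to 4188 for *mt-Co3*. Cytochrome oxidase genes *mt-Co1* and *mt-Co2* had 3131 ± 251 and 2066 ± 88.3 FPKM, above *mt-Nd1* (1698 ± 121), of complex I, and far above the next of the mt-Nd genes, *mt-Nd4* (471 ± 37.4). The nuclear subunits were detected in 36 of 36 cases for complex I (median 80.3 FPKM), 8 of 8 for complex III (141), 15 of 16 for complex IV (138) and 17 of 17 for ATP synthase (103). Their leading genes were *Ndufa4* (509 ± 22.98 FPKM), *Uqcr11* (258 ± 12.9), *Cox6b1* (465 ± 12.9) and *Atp5mpl* (433 ± 12.9). The muscle isoforms *Cox8b*, *Cox7a1* and *Cox6a2* reached 140.1, 98.2 and 85.7, 125, 83.8 and 85.2 and 114, 87.3 and 78.4 FPKM, and all were highest in replicate 1, as were the skeletal muscle genes above. *Cox8c* was at 0.0112 ± 0.0193.

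Central carbon metabolism was also well represented. All 21 glycolysis genes were detected with a median of 40.3 FPKM. *Gapdh*, *Ldha* and *Pkm*, at the lower end of the pathway, were highest with 522, 543 and 522, 462, 479 and 462 and 369, 408 and 381 FPKM. The glucose transporters *Slc2a3* and *Slc2a1* had 19.3 ± 0.736 and 14.3 ± 1.13, and the lactate exporter *Slc16a3* was lowest at 2.45 ± 0.166. Of 30 genes of pyruvate entry and the TCA cycle 29 were detected with a median of 43.6 FPKM, so that this list and glycolysis had near equal medians. *Sdhd* and *Sdha*, of succinate dehydrogenase, had 162 ± 4.37 and 135 ± 13.5 FPKM and *Mdh2* (malate dehydrogenase) 138 ± 5.04. *Pcx*, which feeds oxaloacetate to the cycle, had 1.73 ± 0.567 and *Pdk4*, a kinase that closes pyruvate entry, 1.04 ± 0.501. Fatty acid oxidation genes were detected in 11 of 15 cases with a median of 15.0 FPKM. *Acadl*, a dehydrogenase of long-chain acyl-CoA, led with 74.8 ± 4.51 FPKM, before *Cpt1a* (45.1 ± 2.29), the carrier step of mitochondrial import, and *Acadm* (29.9 ± 2.86). The nuclear receptors *Pparg*, *Ppard* and *Ppara*, which control these genes in other tissues, had 0.429 ± 0.283, 0.237 ± 0.0241 and 0.00142 ± 0.00246 FPKM. Of 23 measured sterol and fatty acid synthesis genes 22 were detected with a median of 12.8 FPKM, led by *Fdps* (69.2 ± 1.08), *Elovl1* (47.5 ± 1.22) and *Elovl5* (41.8 ± 3.06). Hmgcs1 carries no coding type in the table and was not measured.

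All 21 antioxidant genes were detected with a median of 60.9 FPKM. *Gpx1* held 49.0% of their sum, and *Txn1* (thioredoxin, 283 ± 9.11 FPKM) and *Gsr* (glutathione reductase, 170.2 ± 4.14) followed. *Hmox1*, haem oxygenase, was lowest with 7.39 ± 1.80 FPKM. All 19 genes of one-carbon and nucleotide synthesis were detected with a median of 25.7 FPKM, led by the purine enzymes *Paics* (123 ± 3.36) and *Impdh2* (106 ± 5.22) and the serine enzyme *Phgdh* (88.7 ± 5.43). Amino acid transporters were detected in 11 of 13 cases. *Slc3a2* (CD98 heavy chain) had 109.9 ± 3.86 FPKM, *Slc38a2* 56.7 ± 2.57 and *Slc1a5* 32.9 ± 3.22. *Slc7a11*, the cystine carrier, was at 0.412 ± 0.0849 and the peptide carrier *Slc15a2* at 1.68 ± 0.217.

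Lysophospholipids are signalling lipids that *Gdpd3* hydrolyses to lysophosphatidic acids, and the genes around them were modestly expressed. Of 34 lysophospholipid genes 25 were detected, with a median of 4.84 FPKM. *Gde1*, another glycerophosphodiesterase, had 44.3, 39.4 and 36.5 FPKM and far exceeded *Gdpd3*, followed by the acyltransferases *Agpat2* (39.8 ± 3.27) and *Lpcat3* (34.98 ± 1.13). *Enpp2* (autotaxin), which makes lysophosphatidic acid outside cells, had 0.390 ± 0.254 FPKM. Of its receptors, *Lpar6* had 14.8, 14.9 and 16.3 FPKM and *Lpar5* 3.21, 3.49 and 3.15. *Lpar4*, *Lpar2* and *Lpar1* stayed under 1 in every library with means of 0.615, 0.240 and 0.0594, and *Lpar3* was at 0 in every library, as was *Gdpd4*. Among 20 eicosanoid genes 15 were detected. *Lta4h* and *Alox5ap*, of leukotriene synthesis, led with 269.9, 292 and 284 and 202, 192 and 199.9 FPKM, and *Ptges3*, a prostaglandin synthase and co-chaperone, had 74.9 ± 6.97. The leukotriene B4 receptor *Ltb4r1* had 47.3, 49.0 and 47.8 FPKM. *Alox15* was uneven, with 43.9, 25.7 and 30.01 FPKM.

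Receptors and kinases of growth signalling were present with few gaps. Of 26 cytokine and growth factor receptors 24 were detected with a median of 11.4 FPKM. *Ifngr1*, of the interferon gamma receptor, had 136, 138 and 141 FPKM, before *Kit*. The receptors of granulocyte growth factors *Csf3r* and *Csf2ra* had 35.5 ± 3.03 and 29.6 ± 1.82 FPKM, the erythropoietin receptor *Epor* 15.6 ± 1.91, and the interleukin-3 receptor *Il3ra* 2.75 ± 0.384. All 20 JAK-STAT genes were detected with a median of 17.2 FPKM. *Jak1*, *Pim2* and *Stat6* were highest at 54.0 ± 0.979, 34.8 ± 2.89 and 31.0 ± 2.30 FPKM. *Stat5b* and *Stat5a*, which act below BCR-ABL1, had 23.04 ± 0.850 and 16.9 ± 0.497 FPKM, and the STAT target *Cish* 7.10 ± 0.563. All 18 genes of BCR-ABL1 partners were detected. *Ptpn6*, the phosphatase SHP-1, had 92.4, 96.3 and 94.5 FPKM, and *Fes* and *Grb2*, a kinase and an adaptor, 35.8 ± 2.69 and 31.9 ± 0.931. The mouse genes *Abl1* and *Bcr* were low, with 3.50, 3.42 and 3.07 and 1.66, 1.51 and 1.158 FPKM. Whether reads of the human transgene were assigned to them was not tested. Ras and MAPK genes were detected in 17 of 19 cases, among them *Nras* (23.8 ± 1.25 FPKM) and *Map2k2* (MEK2, 22.6 ± 0.457). *Dusp6*, a feedback phosphatase of the MAPK pathway, had 18.5 ± 0.920 FPKM and *Spry4*, a feedback inhibitor, 0.400 ± 0.218.

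Immediate early genes, which respond within minutes to growth factors and to handling of cells, were split. Of 21 such genes 14 were detected, 8 above the 90th percentile. *Fos* had 179.9, 219.9 and 189 FPKM, *Zfp36* 139.6, 141 and 143 and *Junb* 134, 149.9 and 135, whereas *Egr3* and *Nr4a3* had 0.0127 ± 0.0219 and 0.0190 ± 0.0156. Of 25 PI3K, Akt and mTOR genes 24 were detected with a median of 8.80 FPKM. *Eif4ebp1*, a brake on translation under mTOR, had 91.1 ± 4.37 FPKM, *Akt1* 60.3 ± 3.13 and *Pik3cg* 29.7 ± 0.494, and *Mtor* had 2.98 ± 0.128. Of 16 Foxo factors and targets 13 were detected with a median of 4.58 FPKM. *Txnip* held 52.5% of the sum and *Cat* (catalase) and *Sesn1* had 60.9 ± 0.836 and 37.8 ± 2.81 FPKM, while the factors *Foxo1* and *Foxo3* had only 5.27, 4.62 and 4.05 and 1.97, 2.16 and 1.83. Integrins and adhesion genes were detected in 15 of 17 cases, led by *Itgb1* (85.5 ± 4.48 FPKM) and *Selplg* (70.8 ± 2.36), the selectin ligand PSGL-1. Of 17 *Bcl2* family and p53 genes 11 were detected. *Mcl1*, the survival factor, had 88.0, 88.2 and 88.3 FPKM, *Trp53* 44.8 ± 2.27 and *Bax*, the effector of cell death, 35.4 ± 0.316, and *Hrk* was at 0.

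The developmental pathways lay in the lower part of the lists. Of 28 Wnt and beta-catenin genes 14 were detected with a median of 1.13 FPKM, near the 1.28 of all coding genes. The shared core was present, with *Ctnnb1* (beta-catenin) at 60.02, 61.0 and 61.2 FPKM and the destruction complex genes *Csnk1a1* and *Axin1* at 31.9 ± 0.545 and 22.7 ± 1.04. The receptors and readouts were low. *Lgr4* had 0.499, 0.542 and 0.727 FPKM and *Axin2*, a target of the pathway, 0.0438, 0.0521 and 0.0533, and *Fzd10* was at 0. Of 21 TGF-beta and BMP genes 14 were detected. *Smad4* had 28.6 ± 1.94 FPKM, *Smad2* 22.5 ± 2.92, the ligand *Tgfb1* 22.4 ± 2.88 and the receptors *Tgfbr2* and *Tgfbr1* 9.04 ± 0.457 and 6.71 ± 0.564. The BMP receptors *Bmpr2* and *Bmpr1a* had 0.528 ± 0.229 and 0.256 ± 0.0906, and *Bmpr1b* and *Smad9* were at 0. Of 14 Notch genes 6 were detected, with a highest member, the DNA-binding factor *Rbpj*, at 8.38 ± 0.575 FPKM. *Notch2* had 5.65 ± 0.0785 and *Notch1* 1.89 ± 0.213, and *Hey1* was at 0.

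Of 18 interferon-stimulated genes 15 were detected with a median of 6.43 FPKM, led by *Bst2* (45.5 ± 4.03 FPKM) and *Irf1* (28.8 ± 3.31), while *Mx1* and *Mx2* had 0.911 ± 0.562 and 0.567 ± 0.137. Of 34 MHC genes 20 were detected. The class I genes *H2-D1* and *H2-K1* had 708, 752 and 764 and 489, 512 and 516 FPKM and *H2-Q6* 145 ± 16.4. *H2-Ab1* and *H2-Aa*, of class II, had 45.6 ± 0.942 and 22.4 ± 1.03, and *H2-M1*, *H2-M10.5* and *H2-M10.6* were at 0. H2 genes share much sequence, so that values of single members are uncertain. Of 20 regulators of DNA methylation and chromatin 19 were detected with a median of 8.67 FPKM. The deacetylases *Hdac1* and *Hdac2* had 63.1 ± 2.1 and 48.8 ± 1.67 FPKM, before *Dnmt1* (42.4 ± 4.05), which copies methylation at replication. The leukaemia genes *Asxl1*, *Tet2* and *Dnmt3a* had 10.2 ± 0.241, 4.09 ± 0.475 and 2.88 ± 0.0676, and the demethylase *Kdm6b* 0.725 ± 0.0938.

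The share of the leading member was taken in 49 gene families. In bulk RNA this share does not show which paralog a single cell uses. The same gene led in all 3 libraries in all 49, its mean share of the summed FPKM was over 50% in 39, over 75% in 18 and over 90% in 7. The leader and the next member overlapped in 2 families only, the pocket proteins (*Rbl2* 16.7 and *Rbl1* 13.7 FPKM, with *Rb1* at 9.85) and the Runx factors (*Runx1* 8.24, *Runx3* 7.56 and *Runx2* 2.83). Among metabolic families, *Pkm* held 99.3 ± 0.121% of pyruvate kinase FPKM, with *Pklr* at 2.55, and *Aldoa* 96.5 ± 0.458% of aldolase FPKM, with *Aldoc* at 8.18. *Ldha* held 88.3 ± 0.921%, before *Ldhb* (58.5 FPKM) and *Ldhc* (3.60). *Cpt1a* held 95.7 ± 0.359% of the FPKM of its family. The hexokinases were shared, with *Hk3*, a form of myeloid cells, at 59.4 ± 1.12%, *Hk1* at 21.5 FPKM and *Hk2* at 5.86. *Slc2a3* led the glucose transporters with 55.8 ± 1.52%, before *Slc2a1*, and *Slc2a2* was at 0. *Pdk3* held 64.8 ± 1.35% of pyruvate dehydrogenase kinase FPKM, *Idh2* 73.8 ± 1.998% over *Idh1*, *Pfkl* 55.3 ± 2.20% of the phosphofructokinases, *Eno1* 75.7 ± 4.69% of the enolases and *Sod1* 76.0 ± 1.65% of the superoxide dismutases. The share of *Eno1* was lowest in replicate 1 (70.4%), where the muscle form *Eno3* was highest (49.9, 36.7 and 33.2 FPKM).

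**Figure D4:**
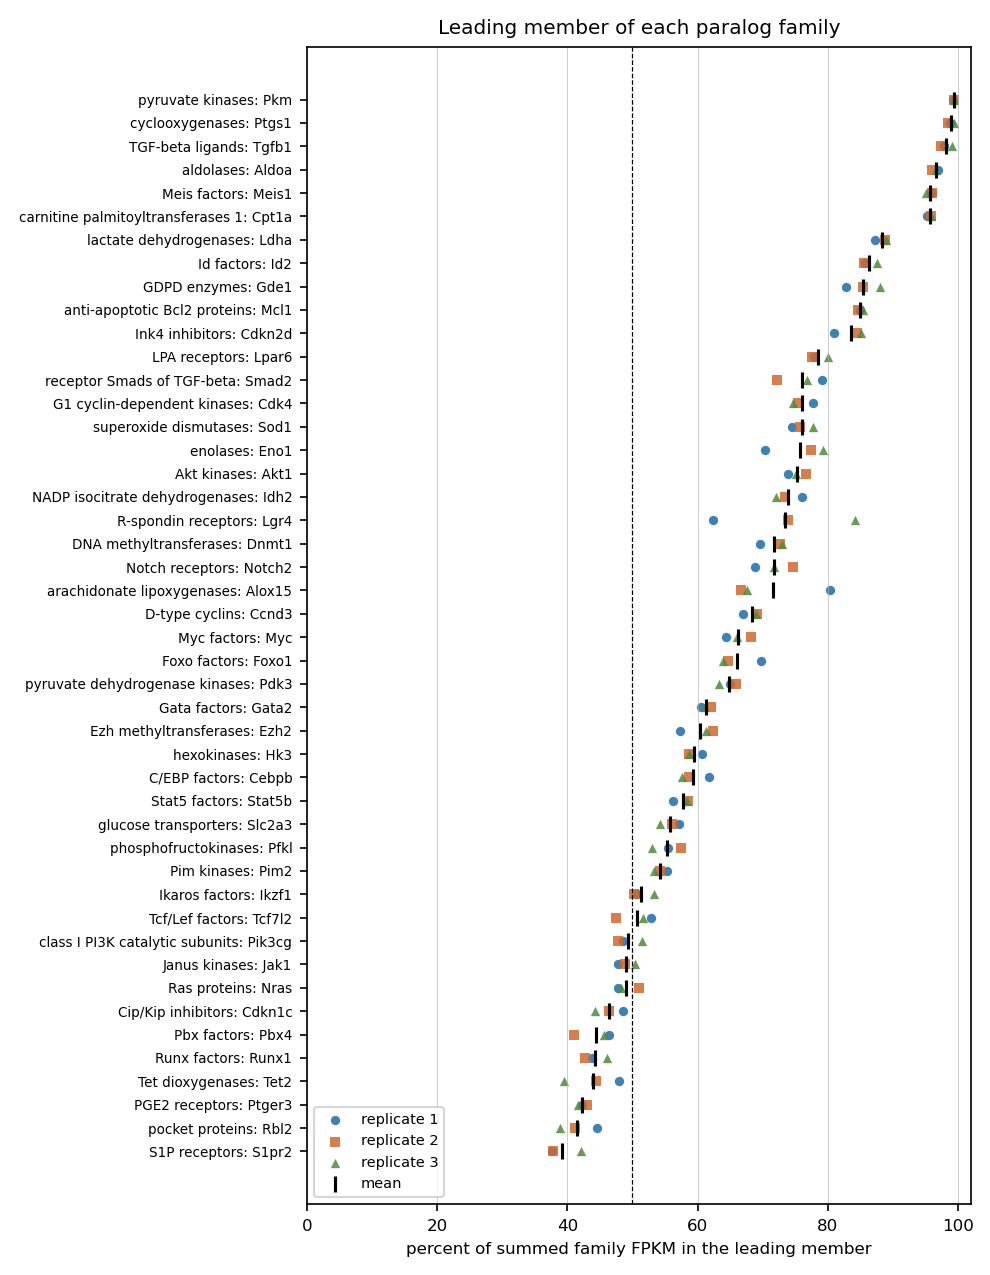
Share of the summed FPKM of each of 46 of the 49 paralog families that its leading member holds (percent), 1 point per library with the mean as a bar and the leading gene after the family's name. Shares run from over 90% for *Pkm*, *Ptgs1*, *Tgfb1*, *Aldoa*, *Meis1* and *Cpt1a* to 39.2% for *S1pr2*.

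Among cell cycle and signalling families, *Ccnd3* held 68.4 ± 1.21% of D-type cyclin FPKM, before *Ccnd2* (45.6 FPKM), and *Ccnd1* was at 1.95. *Cdk4* held 76.0 ± 1.59% over *Cdk6* (38.2 FPKM), *Cdkn2d* 83.5 ± 2.19% of the Ink4 inhibitors and *Cdkn1c* 46.4 ± 2.16% of the Cip/Kip inhibitors. *Akt1* held 75.2 ± 1.32%, with *Akt2* at 16.7 FPKM. *Pik3cg* held 49.3 ± 1.97% of the class I PI3K subunits, before *Pik3cd* (17.0 FPKM), *Pik3cb* (7.06) and *Pik3ca* (6.62). *Jak1* held 49.0 ± 1.34%, before *Jak2* (24.7 FPKM), *Jak3* (21.3) and *Tyk2* (10.4). *Stat5b* (57.7 ± 1.28%), *Pim2* (54.3 ± 1.06%) and *Nras* (49.0 ± 1.73%) led the Stat5, Pim and Ras families. *Foxo1* held 66.1 ± 3.16%, above *Foxo3*, and *Foxo4* and *Foxo6* were at 0.364 and 0.0205 FPKM. *Tgfb1* held 98.1 ± 0.818% of the TGF-beta ligands, *Smad2* 76.0 ± 3.55% over *Smad3*, and *Mcl1* 84.97 ± 0.392% of the anti-apoptotic genes, before *Bcl2l1* (8.42 FPKM) and *Bcl2* (6.49).

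Among families of lipid signalling, *Gde1* held 85.4 ± 2.54% of GDPD enzyme FPKM, before *Gdpd3* and *Gdpd1* (2.16 FPKM), with *Gdpd2* and *Gdpd5* at 0.166 and 0.117. *Lpar6* held 78.5 ± 1.33% of the LPA receptors. *Ptgs1* held 98.9 ± 0.509% of cyclooxygenase FPKM and the inducible *Ptgs2* was at 0.441. *Alox15* held 71.6 ± 7.64% over *Alox5* (12.1 FPKM), with its share highest in replicate 1 (80.4%). The S1P receptors had the lowest leading share of the 49 families, with *S1pr2* (10.9 FPKM), *S1pr1* (7.71) and *S1pr4* (7.35), and the PGE2 receptors similar, with *Ptger3* (8.43), *Ptger4* (5.63) and *Ptger1* (5.18). Among nuclear factors, *Meis1* held 95.8 ± 0.524%, *Id2* 86.3 ± 1.08%, *Dnmt1* 71.8 ± 1.86%, *Myc* 66.2 ± 1.92% over *Mycn*, *Gata2* 61.2 ± 0.771% over *Gata1* (26.96 FPKM) and *Cebpb* (33.7 FPKM) 59.4 ± 2.19%. *Ezh2* held 60.3 ± 2.73% over *Ezh1* (9.33 FPKM), and *Tet2*, *Tet3* and *Tet1* had 4.09, 3.23 and 1.98. *Pbx4* (6.57 FPKM) led the Pbx factors and *Ikzf1* (11.02) the Ikaros factors. The Tcf/Lef factors were low, from 1.58 FPKM for *Tcf7l2* to 0.0453 for *Lef1*.

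The 3 libraries were close to each other. Over the 11564 coding genes with a mean of at least 1 FPKM, the median SD of log2(FPKM + 0.1) was 0.11, and 225 genes (1.95%) differed 2-fold or more between the highest and the lowest library. Pearson's r of these log2 values was 0.988 to 0.992 across genes, which share their libraries and are not replicates. The spread was smaller at higher levels up to 1000 FPKM. Its median fell from 0.41 for genes between 0.05 and 1 FPKM to 0.18 between 1 and 5 and 0.06 between 100 and 1000 FPKM, and was 0.10 for the 31 genes of at least 1000 FPKM. Of the 5665 genes with a mean of at least 10 FPKM only 12 (0.212%) differed 2-fold or more. The 10 that differed most were immunoglobulin and mast cell genes. *Iglc3* had the widest ratio, at 21.4, and *Ighv3-5*, *Igkv4-69*, *Ighg2c* and *Igkv4-71* are further immunoglobulin genes that carry the coding type. *Ighv3-5* had 35.5, 14.6 and 294 FPKM and *Ighg2c* 56.1, 130.4 and 318.

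Among the 10 genes that differed most, the mast cell genes differed between libraries in the same direction. *Tpsb2*, a tryptase, had 34.4, 54.9 and 101 FPKM, *Mcpt4* 8.91, 17.0 and 26.1, *Cma1*, a chymase, 20.7, 41.1 and 59.0, *Fcer1a*, the IgE receptor chain, 13.2, 20.9 and 36.2, and *Cpa3*, a carboxypeptidase of mast cell granules, 27.2, 43.7 and 69.6. Each was lowest in replicate 1 and highest in replicate 3. *Tpsab1*, at a mean of 2.16 FPKM, had a ratio of 4.77. Of all 15 eosinophil, basophil and mast cell genes, 13 were highest in replicate 3 and 11 lowest in replicate 1, whereas over the 11564 genes 25.9% were highest in replicate 3 and 35.7% lowest in replicate 1. Other lists had their own direction. Over the 11564 genes, 27.3% were lowest in replicate 2 and 37.0% in replicate 3. All 10 skeletal muscle genes with a mean of at least 1 FPKM were highest in replicate 1, against 34.9% of all genes, and their summed FPKM was 1325, 926 and 898. Of 18 erythroid genes, 12 were highest in replicate 1 and 14 lowest in replicate 3, with sums of 5750.2, 4483 and 3890 FPKM. Of 16 late neutrophil genes 13 were highest in replicate 1 and 13 lowest in replicate 2, with sums of 29366, 25116 and 27702 FPKM, and of 10 primary granule genes 8 were lowest in replicate 1. Plasma cell genes had sums that differed 1.27-fold between the highest and the lowest library, with 9 of 12 lowest in replicate 2, T and NK cell genes 1.198-fold and megakaryocyte genes 1.17-fold. *Jchain* held 79.3% of the plasma cell sum and *Nkg7* 96.4% of the T and NK cell sum, so their ratios largely reflect single genes. Of the plasma cell genes, 6 were highest in replicate 1 and 5 in replicate 3. For 39 of 53 lists the highest library's summed FPKM was less than 1.1 times the lowest. The part of cell composition in these differences was not tested.

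**Figure D5:**
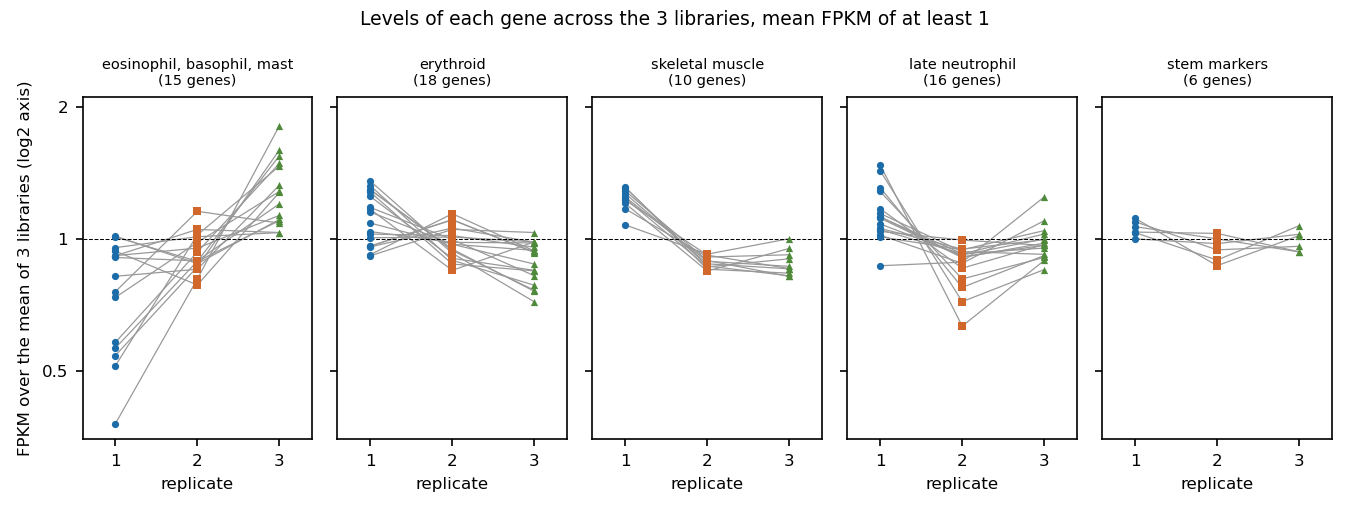
FPKM of each gene over its mean of the 3 libraries (log2 axis) for 5 gene lists, genes with a mean of at least 1 FPKM, with lines joining the values of a gene and no order among replicates. The eosinophil, basophil and mast cell genes are mostly highest in replicate 3, the muscle and erythroid genes in replicate 1, and the 6 stem cell markers stay close to 1.

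By chromosome, 50.8% of autosomal coding genes were detected, with the highest share on chromosome 17 (56.2%) and the lowest autosomal shares on chromosomes 14 (40.9%) and 7 (42.4%). The X chromosome had 36.4% of its 932 coding genes detected. Of 17 coding genes of the Y chromosome 4 were detected in every library. Their means were 15.2 ± 2.20 FPKM for *Ddx3y*, 13.9 ± 3.27 for *Eif2s3y*, 4.34 ± 0.469 for *Kdm5d* and 4.01 ± 0.814 for *Uty*. The group drew on mice of both sexes, and the sexes within each pool are not given.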

How the data were processed

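RNA-Seq had been run by the authors on 3 *Gdpd3*+/+ and 3 *Gdpd3*-/- libraries of sorted LT-CML stem cells, with SMART-Seq v4 cDNA, Nextera XT and paired-end reads of 150 bases. The submitters' processing notes name Trimmomatic, Trim Galore, cutadapt 1.16, STAR 2.6.1a, featureCounts 1.6.1, DESeq2 and the genome build mm9, without roles. The authors deposited FPKM values for 36976 genes. They also deposited a table of their own comparison of the genotypes, whose columns are not used here. Whether counting was stranded is not given in the sources used here. No mm9 genome was at hand, so that no position from the table is printed.

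Only the 3 *Gdpd3*+/+ columns were analysed, grouped by the genotype in the labels. Symbols were updated through the gene identifiers, which matched for 20775 coding genes (92.8%), and the others kept the deposited name. FPKM times gene length was whole within 0.05 bases after scaling by the depth given above, and no reads were recovered from it. With a single group there is no comparison between conditions, and no test was run. Nothing in the labels ties a library to its mice, so that SDs measure the spread between these libraries. No library repeated another's values. Means, SDs, ranks, percentiles, shares and SDs of log2(FPKM + 0.1) were computed in Python 3.11.15 with numpy 2.4.6 and pandas 2.3.3, after a check on simulated data. The figures were drawn with matplotlib 3.10.9.

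The genes named are the 6 markers, *Gdpd3* and gate antigens, the 25 highest coding genes, of each list the 3 highest, those at 0 and members whose function is described, members of the families, and the 10 genes of at least 10 FPKM that differed most between libraries. Named outside this rule, after their values were seen, were *Cd34*, *Iglc2*, *Tpsab1* and the Y chromosome genes. Some genes that this rule names are not reported here. The 3 libraries, gene lists and families were chosen with earlier results of these data known. Alternatives were limits of 0.1 and 5 FPKM, other scalings (quantile normalization, TMM that trimmed 30% of log ratios and 5% of mean levels, a coding sum of 1000000), medians, pseudocounts of 0.01 and 1, other filters and leaving out each library.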

Additional observations from a re-analysis of the deposited data

Results flagged for a closer look

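Immunoglobulin genes outside the protein-coding type gave a strong signal that the levels above leave out. The 481 genes listed with the types of immunoglobulin variable, diversity, joining and constant segments held 12.2, 12.4 and 13.3% of the bases covered on genes in replicates 1, 2 and 3, with a mean of 12.6 ± 0.613% (SD, n = 3). They held 45.2, 47.0 and 48.5% of all FPKM, since FPKM divides by length and the 88 joining segments have a median length of 59 bases. Joining segments alone held 17.0 ± 0.534% of the FPKM and 0.598 ± 0.0317% of the bases. Coding genes thus held 84.5 ± 0.608% of the bases and 46.2 ± 1.6% of the FPKM. These genes were flagged because data outside the measured coding set carried a signal, and no control library is among those described. Dividing FPKM by the coding sum instead of by all genes raises every coding level by a like factor and moves no rank within a library. All 12 plasma cell genes of the coding set were detected in the same libraries, with *Jchain* at rank 11. The part of antibody-secreting cells in this signal was not tested.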

How the results depend on the processing

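The count of detected coding genes stayed within 1.5 times the 11230 reported, at 13651 with a limit of 0.1 FPKM, 7736 with 5, 11912 when any library sufficed, 12458 after scaling coding genes to 1000000, and 11332 to 11344 with 1 library left out. The share of the 100 highest genes was 28.7% without the mitochondrial genome and 17.0% by FPKM times length, which ranks long genes higher, against 31.2%. With 1 library left out it was 30.6 to 31.8%. Scaling to 1000000 over coding genes multiplied marker levels by construction, to 345 for *Kit*, 1029 for *Ly6a*, 28.8 for *Slamf1*, 57.9 for *Procr*, 24.7 for *Mecom* and 64.6 for *Hlf*, and TMM scaling moved none of them beyond 1 SD. Lists above the 50th percentile numbered 50, or 43 among genes of at least 0.05 FPKM, and 50 with any library left out. Families with a leading share over 50% numbered 39, or 25 when sums of log2(FPKM + 1) were used, which compress large values, 33 by FPKM times length, and 38 to 40 with a library left out. The leading share itself moved by at least 1 SD in 48 of 49 families under log2 sums and in 41 by FPKM times length. With a library left out, 0 of 147 shares moved that far. The mean of 2 of the same 3 values cannot move by 1 SD, so this count says nothing about stability. The median SD of log2 values was 0.10 to 0.11 under the other pseudocounts, scalings and no filter, which adds genes at 0, and 0.08 to 0.09 with a library left out. The *Tpsb2*, *Cpa3*, *Cma1*, *Mcpt4*, *Fcer1a* and *Tpsab1* ratios of replicate 3 to replicate 1 ran from 2.56 to 5.00 under TMM and quantile scaling, alternatives chosen after seeing the data, and as deposited. No paired analysis was possible because a single group was described and its replicate numbers only name libraries. Depth in reads is unknown, and values under 1 FPKM had the widest spread.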
